A study of Mus musculus with 18 samples.

Results

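The genes described here are 8 of the 21734 protein-coding genes counted in mouse bone marrow-derived macrophages (BMDMs). They are the chains of the MHC class II molecules H2-Aa, H2-Ab1 and H2-Eb1, the invariant chain Cd74, the chains H2-DMa, H2-DMb1 and H2-DMb2 of the peptide exchanger H2-DM, and the coactivator Ciita. They were taken by gene name, and all 8 passed the filter on low counts. BMDMs are macrophages grown from marrow, here for 8 to 9 days in medium with 10 ng/ml of the growth factor M-CSF. The marrow came from mice 6 to 7 months old, of a 129/B6 mix, with 3 biological replicates of each genotype. The paper describes its replicates as split between sequencing and mass spectrometry, and its mass spectrometry methods give a younger age. WT mice carry the normal miR-146a, KO mice lack its precursor sequence, and in 3F mice the 3′ part of the mature sequence is changed while the seed is kept. Cultures of each genotype were given fresh medium alone (resting) or fresh medium with 1 ng/ml LPS, a bacterial cell wall component that activates macrophages, and were harvested after 16 h, which gave 6 groups of 3 libraries. Both altered lines were made in embryonic stem cells, backcrossed to C57BL6/J and kept separately by breeding heterozygotes. WT mice were taken from both lines.

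MHC class II molecules are dimers of an α and a β chain that display peptides from the endosome to CD4+ T cells. The invariant chain guides newly made dimers to the endosome and fills their groove, and H2-DM exchanges the remnant of that chain for other peptides. Ciita binds no DNA itself. It docks on factors that sit on the X and Y boxes of class II promoters, and in macrophages it is best known as a gene switched on by interferon-γ.

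The change between the WT and 3F microRNA is shown first, with the seed (bases 2 to 8) in capitals, because it defines the genotypes. The WT sequence is RefSeq's (GRCm38.p6, chr11:43374435-43374456, minus strand), and the 3F sequence is the RNA complementary to the probe with which the study detected it.
miR-146a-5p: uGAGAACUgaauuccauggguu
3F form: uGAGAACUgaauaaguguccuu
Both forms hold 22 bases. They share the first 12 and differ at 8 positions, from 13 to 20. No longest annotated 3′ UTR of the 8 genes held a match to the seed (AGTTCTC, or GTTCTCA). Over 21020 genes with an annotated 3′ UTR the share with a match was 18.2%. The UTRs of the 8 genes ran from 291 to 2676 bases, and this share was not matched for length. Shorter matches were not sought.

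Promoters are shown because Ciita acts through them. RefSeq windows of 250 bases before and 50 after the start site were at hand for 5 of the 8 genes. H2-Aa, H2-Eb1, H2-DMb1 and H2-DMb2 each held the Y box letters TGATTGG, which 7.82% of all 32851 windows held on either strand. Upstream of it H2-Eb1, H2-DMb1 and H2-DMb2 held GATGATG, part of the X box (3.48% of windows), and H2-Aa held TGACGTCA, a cyclic AMP response element (1.79% of windows). Capitals mark these letters in the stretches below, each given 5′ to 3′ on the gene's strand.
H2-Aa (chr17:34287857-34287912, minus strand): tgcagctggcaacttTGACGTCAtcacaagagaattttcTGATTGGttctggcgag
H2-Eb1 (chr17:34305767-34305822, plus strand): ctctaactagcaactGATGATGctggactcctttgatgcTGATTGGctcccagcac
H2-DMb1 (chr17:34153088-34153144, plus strand): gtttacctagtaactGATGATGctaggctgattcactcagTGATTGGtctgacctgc
H2-DMb2 (chr17:34145117-34145173, plus strand): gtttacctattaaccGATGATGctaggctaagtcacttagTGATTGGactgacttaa
Between the upstream motif and the Y box lay 16 bases in H2-Aa, 17 in H2-Eb1 and 18 in H2-DMb1 and in H2-DMb2. The Y box began 50, 61, 63 and 92 bases before the start site in that order. Neither of the 2 windows of H2-DMa held any of the 3 motifs. H2-Oa, H2-Ob and H2-Eb2, other class II chains, each held the Y box letters without either upstream motif.

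Libraries held 4071084 to 19818043 counts, the fewest in resting 3F replicate 3. Resting KO replicate 3 stood apart from the other resting KO libraries, with 1136 CPM (counts scaled to 1e6 per library) of Fcgr1, a high-affinity receptor for IgG, against 236 and 206. The cells held macrophage markers, 8 of which summed to 4848 to 12870 CPM per library. Markers of B cells, which also make class II molecules, summed to 0.226 to 3.04 CPM over 7 genes, with 8 counts at most for any gene in any library. Dendritic cell markers summed to 1.43 to 5.39 CPM over 8 genes, T and NK cell markers to 0.385 to 3.14 over 8, and neutrophil and precursor markers to 13.7 to 67.1 over 8. The highest sum of B cell markers and that of dendritic cell markers each came from a single resting 3F library. That group includes the shallowest library. In bulk RNA, fewer cells that express a gene and less RNA per cell cannot be told apart.

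Class II genes were weakly expressed in resting WT macrophages. Per kb of exon, Cd74 (17.4 ± 9.06 CPM per kb, SD, n = 3) and H2-DMb1 (16.3 ± 2.42) stood highest and overlapped each other. H2-Aa (7.60 ± 4.09), H2-Ab1 (6.81 ± 3.48), H2-Eb1 (5.81 ± 2.56) and H2-DMa (4.19 ± 1.23) followed, each overlapping the next. H2-DMb2 (0.661 ± 0.156) and Ciita (0.184 ± 0.0882) came last, and each was separated from its neighbours in every library. Ciita was read by 7 to 65 and H2-DMb2 by 3 to 30 counts per library, so their levels carry the most counting error. H2-DMb1 and H2-DMb2 are close paralogs, and reads that could not be placed uniquely were left out by the authors' mapping quality filter, so the split between them is uncertain.

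**Figure D1:**
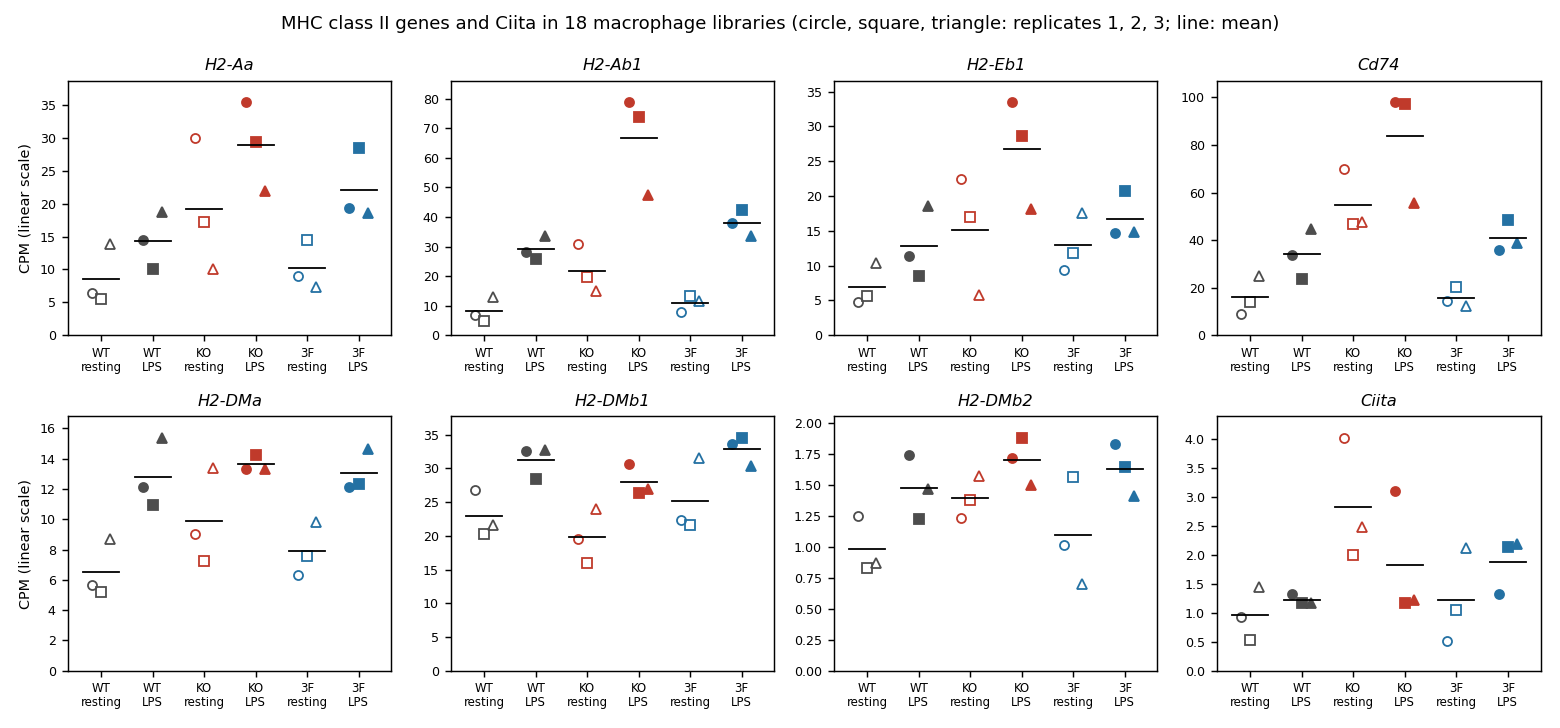
CPM of the 8 genes in each of the 18 libraries (y axes linear, from 0), by genotype and state, with open symbols for resting and filled symbols for LPS libraries and a line at each group's mean. The 3 KO libraries with LPS stand above the 3 WT libraries with LPS for H2-Aa, H2-Ab1 and Cd74, and the resting KO library with the highest Ciita, replicate 1, is also the highest resting library for H2-Aa, H2-Ab1, H2-Eb1 and Cd74.

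LPS raised H2-Ab1, H2-DMa, Cd74 and H2-DMb1 in WT cells, with the largest change in H2-Ab1. In the edgeR quasi-likelihood fit, with p-values adjusted by Benjamini-Hochberg over 11357 genes, these 4 of the 8 genes were called at an adjusted p under 0.05, all higher, where 28.5% of all genes were called in either direction. The median log2 change of the 8 was 0.84, against 0.02 over all genes tested. H2-Ab1, the β chain of the I-A molecule (chromosome 17, 34257689 to 34269419, GRCm38), stood at 6.96, 4.82 and 13.0 CPM in resting WT replicates 1 to 3 and at 28.3, 25.9 and 33.7 with LPS. These did not overlap, and the log2 change was 1.85 ± 0.33 (SE), 3.60-fold, with an adjusted p of 0.000573. H2-DMa, the α chain of H2-DM (34119541 to 34139101), stood at 5.65, 5.20 and 8.70 CPM resting and at 12.1, 10.9 and 15.4 with LPS, a log2 change of 0.99 ± 0.23 with an adjusted p of 0.00468. The WT libraries did not overlap for H2-DMa or H2-DMb1 either, which makes 3 of the 8 genes, against 47.5% of all genes.

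Cd74 (60803848 to 60812652 of its chromosome) went from 8.87, 13.8 and 25.0 CPM in resting WT libraries to 33.8, 23.6 and 44.8 with LPS. One resting library lay above one LPS library, and the log2 change of 1.11 ± 0.34 had an adjusted p of 0.0210. H2-DMb1, the β chain of H2-DM (34153072 to 34160230), went from 22.9 ± 3.40 to 31.3 ± 2.48 CPM (SD, n = 3), a log2 change of 0.45 ± 0.16 with an adjusted p of 0.0488. H2-Aa, the α chain of I-A (34282744 to 34287823), and H2-Eb1, the β chain of the I-E molecule (34305867 to 34316674), had log2 changes of 0.76 ± 0.40 and 0.92 ± 0.43 that missed the threshold. H2-DMb2 (34143307 to 34151555) and Ciita (chromosome 16, 10480059 to 10528418) had log2 changes of 0.57 ± 0.29 and 0.37 ± 0.52. The Cd74 call was lost without resting WT replicate 1, resting WT replicate 2 or WT LPS replicate 3 (log2 change 0.82 to 1.03), and that of H2-DMb1 without resting WT replicate 2 or 3 or WT LPS replicate 1 or 3 (0.37 to 0.42), while H2-Aa was called at 1.28 without resting WT replicate 3. H2-DMb1 was also not called with RLE scaling (0.42) or without the filter on low counts (0.41), nor Cd74 in a fit of the compared groups only (1.07).

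In KO cells LPS raised H2-Ab1 and H2-DMb1, 2 of the 8 genes, where 26.9% of all genes were called. The median log2 change of the 8 was 0.54, against 0.02 over all genes. H2-Ab1 stood at 30.9, 19.7 and 15.0 CPM in resting KO replicates 1 to 3 and at 78.9, 74.0 and 47.4 with LPS, a log2 change of 1.60 ± 0.31 with an adjusted p of 0.00113. The groups did not overlap for 2 of the 8 genes, H2-Ab1 and H2-DMb1, against 42.7% of all genes. H2-DMb1 went from 19.8 ± 4.07 to 28.0 ± 2.34 CPM (SD, n = 3), a log2 change of 0.50 ± 0.16 with an adjusted p of 0.0315. Of the others, Cd74 changed by 0.61 ± 0.32 on the log2 scale, H2-Eb1 by 0.80 ± 0.40, H2-Aa by 0.58 ± 0.38, H2-DMa by 0.48 ± 0.23 and H2-DMb2 by 0.30 ± 0.28, none past the threshold. The H2-DMb1 call was lost without the filter on low counts (0.45), in a fit of the compared groups only (0.45) and when any library of the comparison other than resting KO replicate 3 was left out (0.37 to 0.53), and without resting KO replicate 3 H2-DMa was called at 0.74.

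In 3F cells LPS raised H2-Ab1, Cd74 and H2-DMa, 3 of the 8 genes, where 31.2% of all genes were called. The median log2 change of the 8 was 0.82, against −0.01 over all genes. H2-Ab1 stood at 7.73, 13.4 and 11.7 CPM resting and at 38.0, 42.3 and 33.6 with LPS, a log2 change of 1.81 ± 0.33 with an adjusted p of 0.00064. Cd74 stood at 14.3, 20.4 and 12.2 CPM resting and at 35.8, 48.5 and 38.7 with LPS, a log2 change of 1.36 ± 0.34 with an adjusted p of 0.00656. H2-DMa changed by 0.76 ± 0.24 with an adjusted p of 0.0221. Neither H2-Ab1, Cd74 nor H2-DMa overlapped between resting and LPS libraries. H2-Aa, at 9.03, 14.5 and 7.26 CPM resting and 19.3, 28.4 and 18.6 with LPS, did not overlap either, but its log2 change of 1.06 ± 0.40 had an adjusted p of 0.0531. These were 4 of the 8 genes without overlap, against 45.2% of all genes. The H2-DMa call was lost without resting 3F replicate 1 or 2 or 3F LPS replicate 3 (0.62 to 0.76), and calls were gained for H2-Aa without resting 3F replicate 2 (1.42) and for H2-DMb1 without resting 3F replicate 3 (0.54).

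Cultures of one genotype with the same replicate number were set side by side. Their count columns carry the same letter, although no source states that a number or letter marks one mouse. H2-Ab1, H2-Aa and Cd74 were higher with LPS in 9 of 9 pairs of cultures, and H2-Eb1, H2-DMa, H2-DMb1 and H2-DMb2 in 8 of 9. Ciita was higher in 5 of 9. For H2-Ab1 the log2 response ran from 1.35 to 2.42. The 3 KO pairs had Ciita responses of −0.38, −0.78 and −1.03, the 3 WT pairs 0.53, 1.14 and −0.31, and the 3 3F pairs 1.38, 1.03 and 0.05. The fitted Ciita change was −0.64 ± 0.45 in KO, 0.37 ± 0.52 in WT and 0.87 ± 0.52 in 3F, with adjusted p-values of 0.321, 0.651 and 0.212 by the edgeR fit. A change of Ciita with LPS was therefore not detectable in any genotype at this depth, while its target H2-Ab1 rose in all 3.

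**Figure D2:**
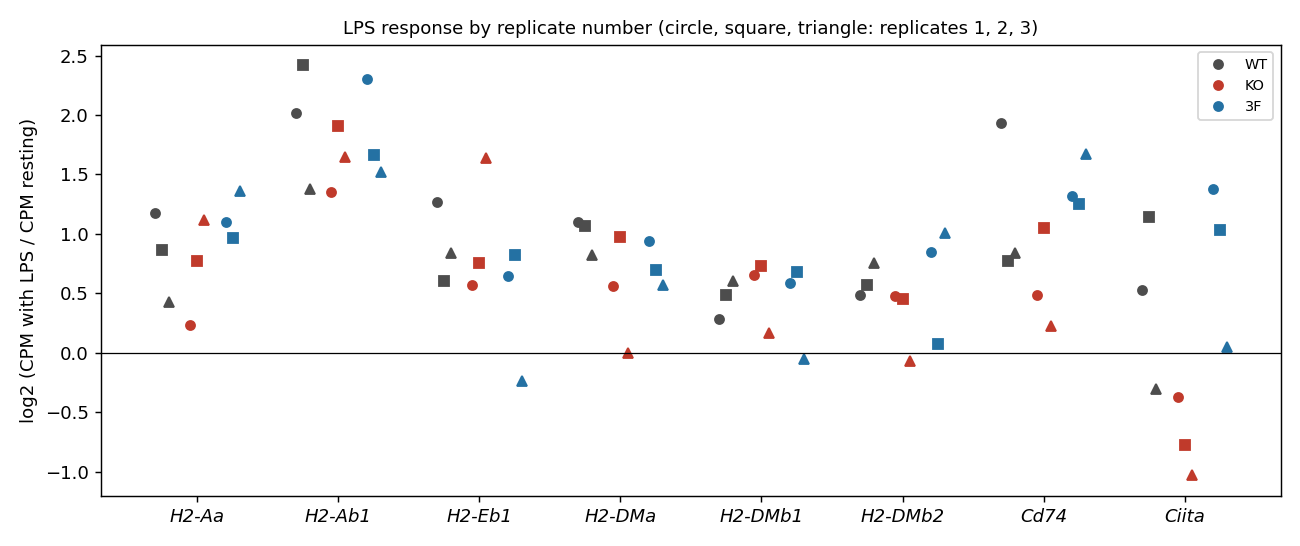
Log2 ratio of CPM with LPS to CPM resting (y axis) for each of the 8 genes, for replicates 1 to 3 of WT, KO and 3F. All 9 points of H2-Ab1 lie between 1.35 and 2.42, whereas the Ciita points run from −1.03 in KO replicate 3 to 1.38 in 3F replicate 1.

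H2-Ab1 and H2-Aa encode partners of one dimer, and the ratio of H2-Ab1 to H2-Aa was on average higher with LPS. Because both are counted in the same library, the ratio of their counts does not depend on scaling. In resting WT libraries the ratio of H2-Ab1 to H2-Aa counts was 1.09, 0.877 and 0.931, and with LPS it was 1.96, 2.58 and 1.80. It ran from 1.03 to 1.49 in resting KO and from 2.16 to 2.52 in KO with LPS, and from 0.856 to 1.61 in resting 3F and 1.49 to 1.97 in 3F with LPS. The highest resting ratio, 1.61, was in the shallowest library, resting 3F replicate 3, which held 50 and 31 counts of these genes. Over all genotypes the log2 ratio was 0.911 higher with LPS, with a two-sided exact permutation p of 0.0005 when states were exchanged within genotypes. The ratio of H2-DMa to H2-DMb1, the chains of H2-DM, was 0.291 higher on the log2 scale over all genotypes, with an exact permutation p of 0.041. In KO its mean log2 was −1.03 both resting and with LPS, while in WT it was −1.84 resting and −1.30 with LPS, and in 3F −1.67 and −1.34. Whether the genotypes differed in this was not tested. Adjusted over these 2 ratios the permutation p-values were 0.001 and 0.041. Both ratios were chosen after their values were seen, and the p-values do not account for that choice.

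**Figure D3:**
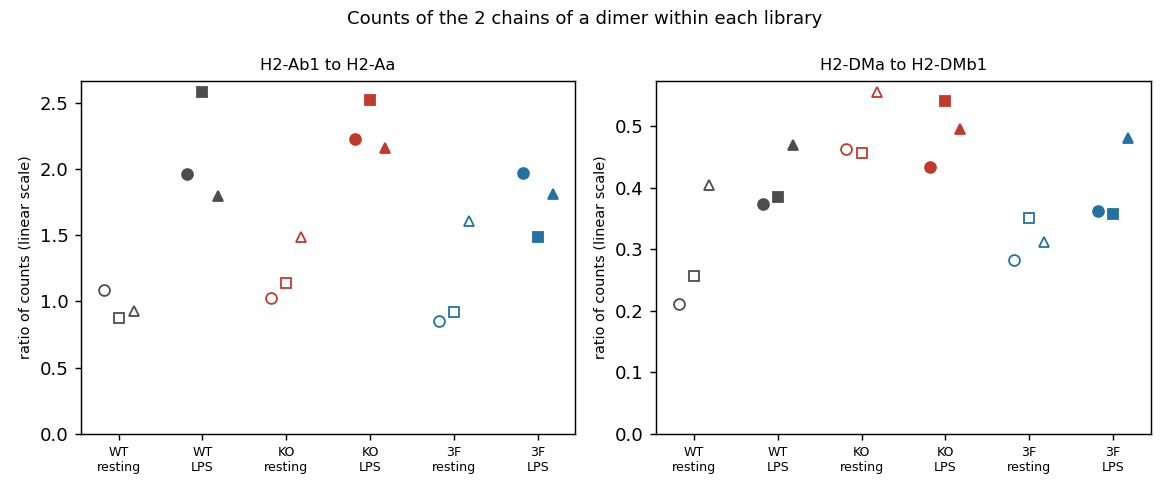
Ratio of H2-Ab1 to H2-Aa counts (left) and of H2-DMa to H2-DMb1 counts (right) in each library (y axes linear, from 0), by group, with open symbols for resting and filled for LPS. The H2-Ab1 to H2-Aa ratio is 0.856 to 1.61 in resting libraries and 1.49 to 2.58 with LPS, and the H2-DMa to H2-DMb1 ratio of resting KO libraries, 0.457 to 0.556, lies above that of resting WT libraries, 0.211 to 0.404.

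Resting KO macrophages held more Cd74 and H2-Ab1 RNA than resting WT macrophages, the comparison that asks what loss of miR-146a does before stimulation. These were 2 of the 8 genes called, both higher in KO, where 9.40% of all genes were called. The median log2 difference of the 8 was 1.19, against 0.02 over all genes. Cd74 stood at 70.0, 46.8 and 47.7 CPM in resting KO replicates 1 to 3, against 8.87, 13.8 and 25.0 in WT. Every KO library lay above every WT library, and the log2 difference was 1.80 ± 0.34, 3.49-fold, with an adjusted p of 0.00445. H2-Ab1 was higher in KO by 1.44 ± 0.33 with an adjusted p of 0.0123, again without overlap, since its lowest KO library stood at 15.0 CPM and its highest WT library at 13.0.

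Ciita stood at 4.02, 1.99 and 2.47 CPM in resting KO (65, 26 and 22 counts) and at 0.920, 0.527 and 1.45 in resting WT (14, 7 and 15 counts). The groups did not overlap, but the log2 difference of 1.59 ± 0.49 had an adjusted p of 0.0527 and was not called. H2-Aa (1.19 ± 0.40) and H2-Eb1 (1.18 ± 0.43) were not called either, with adjusted p-values of 0.0767 and 0.101. Both overlapped WT through resting KO replicate 3, the library with high Fcgr1, in which H2-Aa stood at 10.1 CPM and H2-Eb1 at 5.84, against 30.0 and 17.2, and 22.5 and 17.0, in replicates 1 and 2. H2-DMa (0.60 ± 0.24), H2-DMb2 (0.47 ± 0.30) and H2-DMb1 (−0.21 ± 0.16) were not called. The libraries of the 2 groups did not overlap for 3 of the 8 genes and for 26.8% of all genes. Without resting KO replicate 3, H2-Aa (1.49) and H2-Eb1 (1.55) were called too. H2-Aa was also called without resting WT replicate 3 (1.70) and Ciita without resting KO replicate 2 (1.79). The H2-Ab1 call was lost without either resting WT replicate 1, resting WT replicate 2 or KO replicate 1 of the resting group (1.10 to 1.33), and in a fit of the compared groups only (1.41), and the Cd74 call was kept whichever library was left out (1.51 to 2.28).

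With LPS, Cd74 and H2-Ab1 were again higher in KO than in WT, 2 of the 8 genes, where 4.79% of all genes were called. The median log2 difference of the 8 was 0.79, against 0.01 over all genes. Cd74 stood at 98.0, 97.1 and 55.8 CPM in KO and at 33.8, 23.6 and 44.8 in WT, a log2 difference of 1.30 ± 0.33 with an adjusted p of 0.0328. H2-Ab1 stood at 78.9, 74.0 and 47.4 CPM in KO and at 28.3, 25.9 and 33.7 in WT, a log2 difference of 1.19 ± 0.30 with an adjusted p of 0.0350. H2-Aa did not overlap either, at 35.4, 29.4 and 21.9 CPM in KO and 14.5, 10.0 and 18.7 in WT, but its log2 difference of 1.01 ± 0.39 had an adjusted p of 0.159. H2-Eb1 differed by 1.06 ± 0.41 and Ciita by 0.58 ± 0.48, neither called. The H2-DM chains lay closest to WT, at 0.09 ± 0.22 for H2-DMa, −0.16 ± 0.16 for H2-DMb1 and 0.20 ± 0.28 for H2-DMb2. The libraries did not overlap for 3 of the 8 genes and for 33.0% of all genes. The H2-Ab1 call was lost without any one library other than KO LPS replicate 3 (1.05 to 1.30), and the Cd74 call without WT LPS replicate 1 or 2 or KO LPS replicate 1 or 2 (1.09 to 1.29).

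No class II gene was called between 3F and WT, the comparison that asks whether the 3′ part of the microRNA matters. In resting cells 0 of the 8 were called by edgeR's test and 0% of all genes were. With LPS 0 of the 8 and 0.00881% of all genes were called. None of the 8 reached an unadjusted p under 0.05 in either state, and DESeq2 and limma-voom called none of them. Libraries of 3F and WT overlapped for all 8 in both states. A lack of overlap was rare over all genes too, at 7.12% in resting cells and 7.87% with LPS. Both comparisons used the WT libraries that KO was set against, and the values for 3F follow. Resting Cd74 stood at 15.6 ± 4.27 CPM in 3F and 15.9 ± 8.29 in WT (SD, n = 3 each), a log2 difference of 0.02 with a 95% interval of −0.71 to 0.75. Resting H2-Ab1 differed by 0.42 (−0.30 to 1.14) and resting Ciita by 0.11 (−1.07 to 1.29). The largest resting difference was that of H2-Eb1, 0.87 (−0.06 to 1.81). With LPS the log2 differences were 0.27 for Cd74 (−0.42 to 0.96), 0.38 for H2-Ab1 (−0.26 to 1.02), 0.63 for H2-Aa (−0.19 to 1.45) and 0.61 for Ciita (−0.42 to 1.64). All 8 differences were above 0 in both states, and the medians were 0.24 resting and 0.33 with LPS, against 0.00 and −0.01 over all genes. Differences as large as 2-fold (1 on the log2 scale) lay inside several of these intervals.

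**Figure D4:**
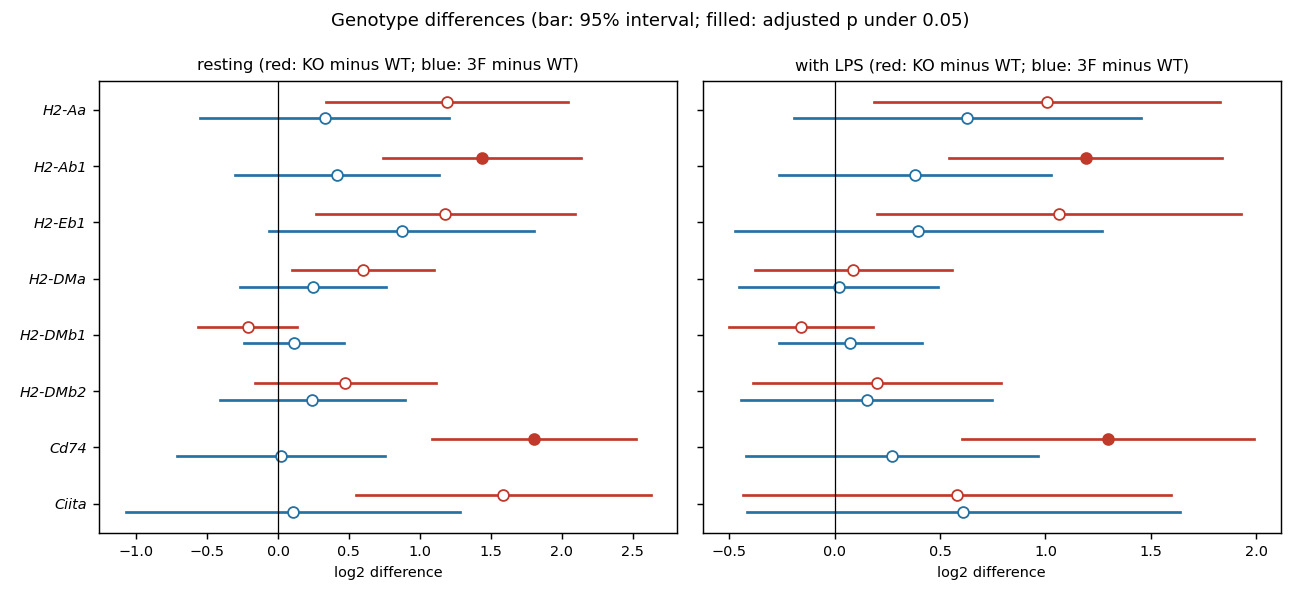
Log2 difference of KO from WT (red) and of 3F from WT (blue) for each of the 8 genes (y axis; x axis in log2 units), in resting cells (left) and with LPS (right), with bars for 95% intervals from the edgeR fit and filled points for an adjusted p under 0.05. The filled points are Cd74 and H2-Ab1 in KO, at 1.80 and 1.44 resting and 1.30 and 1.19 with LPS, and the interval of resting Cd74 in KO, 1.08 to 2.53, lies above that in 3F, −0.71 to 0.75.

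Set directly against 3F, resting KO cells held more Cd74, the 1 gene of the 8 called, where 12.9% of all genes were called. Cd74 stood at 70.0, 46.8 and 47.7 CPM in resting KO and at 14.3, 20.4 and 12.2 in resting 3F. At 1.78 ± 0.34 on the log2 scale (adjusted p 0.00621), it was called whichever library was left out (1.57 to 2.03), but not in a fit of the compared groups only (1.79, adjusted p 0.0672). H2-Ab1 was separated too (lowest KO library 15.0 CPM, highest 3F library 13.4), which makes 2 of the 8 genes against 29.7% of all genes, with a log2 difference of 1.02 ± 0.33 and an adjusted p of 0.0501. Ciita differed by 1.48 ± 0.51 with an adjusted p of 0.0629 and H2-Aa by 0.86 ± 0.40 with one of 0.151. Calls were gained for H2-Ab1 without resting KO replicate 3 (1.23) or resting 3F replicate 2 (1.25) and for Ciita without resting 3F replicate 3 (1.89). With LPS, 0 of the 8 were called between KO and 3F, where 3.88% of all genes were, and 2 of them reached an unadjusted p under 0.05 in the edgeR fit. These were Cd74 (1.03 ± 0.32, adjusted p 0.0951) and H2-Ab1 (0.81 ± 0.30, adjusted p 0.163), and these 2 of the 8 did not overlap between the groups, against 34.3% of all genes. DESeq2 called 1 of the 8, Cd74, and limma-voom 2. The median log2 difference of KO from 3F over the 8 was 0.61 resting and 0.22 with LPS.

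The LPS response itself was also compared between genotypes, as an interaction. By edgeR's test 0 of the 8 genes were called for KO against WT, where 0.00881% of all genes were, and 0 for 3F against WT, where 0% were. None had an unadjusted p under 0.05, and DESeq2 and limma-voom called none. For KO against WT the difference of the log2 responses was −0.25 for H2-Ab1 (95% interval −1.19 to 0.69), −0.51 for Cd74 (−1.49 to 0.48), −0.51 for H2-DMa (−1.19 to 0.18) and −1.01 for Ciita (−2.46 to 0.45). For 3F against WT it ran from −0.47 for H2-Eb1 to 0.50 for Ciita.

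Regulators that feed Ciita were measured in the same libraries. Ifng, which encodes interferon-γ, had 1 count in all 18 libraries together. Of 10 genes on the interferon-γ route to Ciita, 9 were tested, and 6 rose with LPS in WT, 5 in KO and 7 in 3F, with none lower. The largest rises in WT were those of Socs1, a feedback inhibitor (log2 change 3.96 ± 0.63), Irf1, an activator at the Ciita promoter (2.12 ± 0.27), and Jak2, a kinase of the interferon-γ receptor (1.60 ± 0.20). In KO they were Socs1 (3.09), Jak2 (1.45) and Irf1 (1.32), and in 3F Socs1 (3.51), Irf1 (2.03) and Jak2 (1.86). In resting KO against WT 1 of the 9 was called, Irf1 (1.44 ± 0.26, adjusted p 0.00368), and against 3F 2 were, Irf1 (1.38) and Jak2 (0.73). Without resting KO replicate 3 Irf1 was still called against WT, at 1.21, and Prdm1, a repressor of Ciita, was called at 0.78. The Jak2 call against 3F was lost without resting KO replicate 3 (0.42) or resting 3F replicate 3 (0.60). With LPS, 0 of the 9 were called by edgeR's test between KO and WT or between KO and 3F.

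Fcgr1 and Irf1 were highest in another resting KO library than Ciita. Fcgr1 stood at 236, 206 and 1136 CPM in replicates 1 to 3 and at 123 to 215 CPM in resting WT and 3F libraries. Irf1 stood at 105, 95.2 and 154 CPM in resting KO, above the 38.2 to 50.6 CPM of resting WT and 3F libraries. Ciita stood at 4.02, 1.99 and 2.47 CPM in the same order. Replicate 1, with the most Ciita, had the most H2-Ab1 (30.9 CPM), H2-Aa (30.0), H2-Eb1 (22.5) and Cd74 (70.0), while replicate 3, with the most Fcgr1 and Irf1, had the least H2-Ab1 (15.0), H2-Aa (10.1) and H2-Eb1 (5.84). H2-DMa and H2-DMb1 were instead highest in replicate 3, at 13.4 and 24.0 CPM. Whether the state of replicate 3 bears on these levels was not tested.

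**Figure D5:**
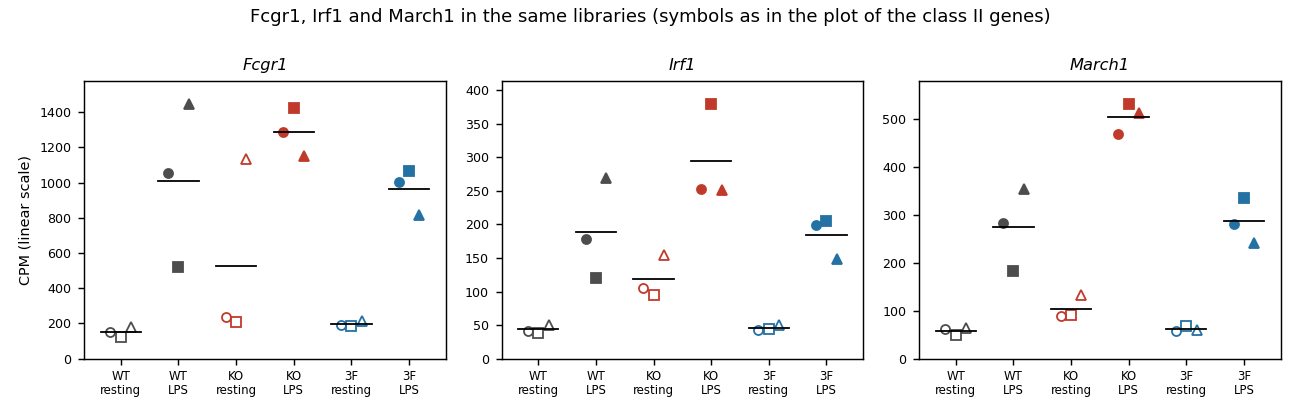
CPM of Fcgr1, Irf1 and March1 in each library (y axes linear, from 0), by group, with open symbols for resting and filled for LPS and a line at the mean. Resting KO replicate 3 (open red triangle) stands at 1136 CPM of Fcgr1, among the LPS libraries, and all 3 KO libraries with LPS lie above the WT and 3F libraries with LPS for March1.

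Of 7 measured factors that bind class II promoters, Rfx5, a subunit of the X box complex, rose with LPS in every genotype (0.89 ± 0.22 in WT, 0.93 ± 0.22 in KO and 0.95 ± 0.23 in 3F on the log2 scale). Rfxap, another subunit, rose in 3F (0.37), and Nfya, a subunit of the Y box factor, fell in KO (−0.35). The Rfxap call was lost without 3F LPS replicate 1 or 3 or resting 3F replicate 1 or 3 (0.31 to 0.37), and the Nfya call without any one library other than resting KO replicate 3 (−0.41 to −0.23). None was called between genotypes. Of the other class II chains, H2-Oa and H2-Eb2 were too low to test, H2-Ob was tested and not called in any comparison, and H2-Ea was not analysed here. H2-Ob stood at 0.290 to 2.28 CPM over all libraries. Its log2 change with LPS was 0.94 in WT, 0.96 in KO and 1.32 in 3F. The 3F change was called once resting 3F replicate 3 was left out (2.04).

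Of 8 endosomal processing genes measured, LPS raised Sppl2a, a protease that removes the last fragment of Cd74, in WT (1.48 ± 0.25), KO (0.97 ± 0.25) and 3F (1.56 ± 0.26), and raised the protease Ctsz in each as well (0.73, 0.65 and 0.58). Ctsd, an aspartic protease, fell in each (−0.42, −0.46 and −0.45), and the protease Lgmn fell in WT (−0.45). The falls in WT were lost without any one of the 6 libraries, at −0.46 to −0.34 for Ctsd and −0.52 to −0.35 for Lgmn. That of Ctsd was also lost in KO without KO LPS replicate 1 or 3 or resting KO replicate 1 or 2 (−0.42 to −0.34), and in 3F without 3F LPS replicate 1 or 2 or resting 3F replicate 2 (−0.49 to −0.32). Between genotypes 1 call was made, Sppl2a in resting KO against 3F (0.91 ± 0.25, adjusted p 0.0281), and it was lost without resting KO replicate 3 (0.43) or resting 3F replicate 3 (0.75).

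March1, a ubiquitin ligase that removes class II molecules from the cell surface, was higher in KO cells in both states. It stood at 62.0, 48.7 and 64.6 CPM in resting WT and 88.2, 90.9 and 132 in resting KO, a log2 difference of 0.83 ± 0.21 with an adjusted p of 0.0212. With LPS it stood at 284, 184 and 355 CPM in WT and 470, 532 and 514 in KO, a log2 difference of 0.88 ± 0.21 with an adjusted p of 0.0238. It was higher in KO than in 3F too, by 0.74 resting and 0.82 with LPS. The resting calls were lost without resting KO replicate 3 (0.62 against WT and 0.53 against 3F), without resting WT replicate 1 (0.87) or 2 (0.71), and without resting 3F replicate 1 (0.70) or 3 (0.72). Those with LPS were lost without any one library other than WT LPS replicate 3 or 3F LPS replicate 2 (0.66 to 0.93 against WT, 0.71 to 0.87 against 3F). LPS raised it in WT (2.23 ± 0.22), KO (2.29 ± 0.22) and 3F (2.21 ± 0.22). Cd83, a surface protein that opposes March1, fell with LPS in each (−2.11, −2.76 and −2.32), March8, a relative of March1, fell in 3F (−0.31), and Il10, a cytokine that raises March1, rose in WT (2.03). The Il10 call was lost without WT LPS replicate 3 (1.18) or resting WT replicate 1 (2.01) or 2 (1.96). That of March8 was lost without 3F LPS replicate 1 or 3 or resting 3F replicate 2 (−0.28 to −0.23). Of 76 calls made over these lists and the marker lists, 44 were kept whichever library of their comparison was left out.

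Macrophage markers moved with the same comparisons. Of 8, 5 rose with LPS in WT, 3 in KO and 5 in 3F, led by Fcgr1 in WT (2.73) and 3F (2.30) and Adgre1 in KO (1.56). Fcgr1 was called with LPS in KO too (2.54) once resting KO replicate 3 was left out. In resting KO against WT, Fcgr1 (1.79) and Csf1r (0.81) were higher and Itgam (−0.70) lower, and Itgam was lower in KO with LPS as well (−0.59). Against 3F, Csf1r (1.05) was higher and Itgam (−0.59) lower in resting KO, and Mertk (0.95) was higher and Itgam (−0.60) lower with LPS. The Itgam call against 3F with LPS was lost without any one of the 6 libraries (−0.65 to −0.52), that against WT with LPS without any one other than WT LPS replicate 2 (−0.61 to −0.51), and the Mertk call without any one other than 3F LPS replicate 2 (0.77 to 1.10). Without resting KO replicate 3, Fcgr1 was not called between resting KO and WT (0.54), and Csf1r (0.87) and Itgam (−0.61) were. This Fcgr1 call was also lost without resting WT replicate 1, 2 or 3 (1.662 to 1.925). That of Csf1r against WT was lost without resting WT replicate 1 (0.685). Against 3F, the resting Itgam call was lost without resting KO replicate 3 (−0.498) or resting 3F replicate 2 (−0.491). The part of these genes in the class II differences was not tested. Among the markers of other cells, no B cell gene and 1 dendritic cell gene passed the filter on low counts, and the latter was not called in any comparison. Cd2 of the T and NK cell list fell with LPS in all 3 genotypes (−2.39 to −3.86) from 24 counts or fewer per library. Camp of the neutrophil list rose in WT (2.78) and KO (2.80), and with LPS KO exceeded 3F in Ltf (2.35). The Ltf call was lost without any one library other than KO LPS replicate 1 (1.91 to 2.62). That of Camp was lost in WT without resting WT replicate 2 or 3 or WT LPS replicate 2 or 3 (2.453 to 2.785). In KO it was lost without resting KO replicate 1 or 2 (2.41 to 2.42). Camp was called with LPS in 3F too (4.21) once resting 3F replicate 3 was left out. The Cd2 call was lost in WT without resting WT replicate 1 or 3 or WT LPS replicate 2 or 3 (−2.46 to −1.56). In 3F it was lost without 3F LPS replicate 2 (−3.65).

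Once group means were taken out, the classical chains and Cd74 varied together more closely than the H2-DM chains did with them. With group means left in, the values of r overlapped. Over the 18 libraries, which share their groups and depth, Pearson's r of log2 CPM was 0.902 between H2-Aa and H2-Ab1, 0.862 between H2-Aa and H2-Eb1 and 0.903 between H2-Aa and Cd74. After the group means were taken out these were 0.865, 0.772 and 0.841. H2-Eb1 had a lower r with H2-Ab1 (0.819) and Cd74 (0.744), and 0.793 and 0.645 within groups. With H2-Ab1, H2-DMa had an r of 0.837, H2-DMb2 of 0.732 and H2-DMb1 of 0.458, and 0.332, 0.0857 and 0.0579 within groups. With Cd74 these were 0.713, 0.683 and 0.0948, and 0.354, 0.146 and −0.187 within groups. Ciita had an r of 0.570 with H2-Aa and 0.503 with H2-Ab1, and 0.404 and 0.654 within groups. The mean of the 8 centred log2 levels ran from −1.08 to −0.32 in resting WT, −0.09 to 0.47 in resting KO and −0.75 to −0.31 in resting 3F. With LPS it ran from −0.20 to 0.31 in WT, 0.38 to 0.94 in KO and 0.27 to 0.53 in 3F.

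Among 10255 other genes, the 5 most like that mean over the 18 libraries were Ier3 (Pearson's r 0.931), Tmem176b (0.919), Pot1b (0.919), Ms4a4a (0.914) and Tmem176a (0.910). Tmem176b stood at 4.12 ± 1.02 CPM in resting WT, 19.8 ± 6.09 in resting KO and 4.92 ± 0.418 in resting 3F, and at 24.4 ± 5.53, 68.9 ± 13.7 and 24.5 ± 4.88 with LPS (SD, n = 3 each). Most like Ciita were Ltbp2 (0.774), P2rx7 (0.755) and Nlgn2 (0.738). Ltbp2 stood at 4.21 ± 0.705 CPM in resting KO and at 0.637 to 3.99 CPM in the libraries of the other groups. These values are a description of 18 libraries that share their groups.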

How the data were processed

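Total RNA of 18 BMDM cultures, 3 of each genotype and state, was sequenced as stranded libraries after removal of ribosomal RNA (Ribo-Zero, NEBNext Ultra II Directional). The authors trimmed reads with cutadapt, removed those from ribosomal DNA, aligned the rest to mm10 with HISAT2 and deposited raw counts per protein-coding gene, made with featureCounts over Gencode M15 exons with a mapping quality limit, beside each gene's exon length. The submitters' processing notes give cutadapt 1.8.3, HISAT2 2.1.0 and featureCounts 1.5.3. Multiply placed reads are thereby left out, which lowers counts of near-identical genes. Ribosomal RNA depletion keeps unspliced RNA, but introns were not counted. Replicates were not pooled, and no library duplicated another (chi-square per degree of freedom between replicates 6.95 to 109).

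Counts were tested with edgeR 4.0.16 in R 4.3.3 (filterByExpr, which kept 11357 of 21734 genes; TMM factors 0.812 to 1.15; quasi-likelihood fit of the 6 groups over all 18 libraries, 12 residual degrees of freedom, biological coefficient of variation 0.184). The Benjamini-Hochberg adjustment ran over every gene that passed the filter, and calls are those with an adjusted p below 0.05. The study states no test of single genes for these counts. Standard errors come from the log2 change and its F statistic, and intervals use the fit's degrees of freedom. CPM are counts scaled to 1e6 of the TMM-adjusted total over the genes that passed the filter and were divided by exon length to rank genes. Counting error is largest for Ciita and H2-DMb2, and for the library of 4071084 counts. The 3 libraries of a group are its replicates. Groups were fitted as independent, since no source states which cultures share a mouse. Exact permutation tests were run on the 2 count ratios.

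The members and lists were chosen with earlier results of these data known. All 8 members are named. Of each other list, the genes called in a comparison are named, up to 3 higher and 3 lower by size. Named for likeness are the 5 genes with the highest r with the members' mean and the 3 with the highest r with Ciita, among genes with an average log2 CPM of at least 1. Alternatives were RLE scaling, no filter, DESeq2 1.42.0, limma-voom (limma 3.58.1) with quality weights, a fit of the compared groups only, a replicate block and leaving out each library. Leaving out libraries for the other lists, the ratios, and the comparison of LPS responses between KO and 3F were added after the values were seen. The script was tested on simulated data. One gene of the interferon-γ list is not reported here. miR-146a itself, H2-Ea and Ifi30 were not analysed here, nor were the promoters of H2-Ab1, Cd74 and Ciita. Gene positions are those of GRCm38 in Gencode M21, and 3′ UTRs were read from the same annotation.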

Additional observations from a re-analysis of the deposited data

Results flagged for a closer look

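Ciita was lower with LPS in every KO pair of cultures and higher in every 3F pair, but the difference was not called. In all 3 KO pairs it was lower with LPS, by 0.38, 0.78 and 1.03 on the log2 scale, and in all 3 3F pairs it was higher, by 1.38, 1.03 and 0.05. Pairs are cultures with the same replicate number. The difference of the 2 responses in the edgeR fit was −1.51 ± 0.69 (SE, 95% interval −2.97 to −0.05). Its unadjusted p was 0.0434 and its Benjamini-Hochberg adjusted p over all genes was 0.443, so it was not called. This comparison was added after the values had been seen, it called 0.0176% of all genes, and Ciita was read by 9 to 65 counts in these libraries. Resting KO replicate 1, with 65 counts, held the most Ciita of all 18 libraries. The other 7 genes did not move one way in every pair of one genotype and the other way in every pair of another.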

How the results depend on the processing

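Of 1170 settings tried on single genes, 1027 kept the direction and the side of the threshold, 47 gained a call, 39 lost one and 57 changed sign. The cause of these changes was not tested. No value that changed sign was called.

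The number of the 8 genes called moved as follows. For LPS in KO it was 2, but 1 without a filter on low counts, 1 in a fit of the compared groups only and 4 with the replicate block. For LPS in 3F it was 3, and 5 with limma-voom. For KO against WT it was 2 in resting cells, but 4 without the filter, 4 with DESeq2, 1 in the compared groups only, 5 with limma-voom and 1 with the replicate block, and with LPS it was 2, but 4 with limma-voom and 0 with the replicate block. For KO against 3F it was 1 resting, but 2 without the filter, 2 with DESeq2, 0 in the compared groups only, 5 with limma-voom and 0 with the replicate block, and 0 with LPS, but 1 with DESeq2, 2 in the compared groups only, 2 with limma-voom and 3 with the replicate block. Leaving out 1 library gave 2 to 4 for LPS in WT, 1 to 3 for LPS in KO, 1 to 4 for resting KO against WT, 0 to 2 for KO against WT with LPS and 1 to 2 for resting KO against 3F. RLE scaling left each of these counts within 1.5 times.

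No source states that a replicate number marks one mouse. The names of the count columns give resting and LPS libraries of equal number the same letter. For its small RNA libraries the paper defines such letters as identifiers of biological replicates of the cultures. Deviations of same-numbered resting and LPS libraries correlated with r of 0.0283 to 0.318, not all over 0.1, and 8 of 9 resting libraries correlated best with their own number, a hint from the data and not the design. Between genotypes r was −0.287 to 0.214. In genotype comparisons the replicate block matched libraries of equal number across genotypes, which no source links, and used the compared groups only. It is thus no check on pairing there. The replicate block therefore stands here alone. With it, LPS called 5 of the 8 in WT (H2-Aa 0.81 and H2-Eb1 0.91 gained, H2-DMb1 0.45 lost), 4 in KO (H2-Aa 0.69 and H2-Eb1 0.94 gained) and 4 in 3F (H2-Aa 1.11 gained).

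Small differences changed sign. For 3F against WT in resting cells Cd74 was −0.016 without the filter and −0.018 with DESeq2, and Ciita −0.15 with limma-voom. With limma-voom H2-DMb2 was −0.033 and −0.012 for KO against 3F resting and with LPS, and Ciita 0.11 with LPS. The KO response against that of WT was 0.029 for H2-Eb1 with the replicate block, and the 3F response for H2-DMb1 was 0.0046 without the filter and 0.037 with limma-voom. For KO against WT with LPS, leaving out 1 library gave −0.015 to 0.24 for H2-DMa and −0.043 to 0.81 for Ciita. In resting 3F against WT it gave −0.024 to 0.84 for H2-Aa, −0.058 to 0.24 for H2-DMb1, −0.11 to 0.46 for H2-DMb2, −0.28 to 0.50 for Cd74 and −0.28 to 0.56 for Ciita, and with LPS −0.087 to 0.17 for H2-DMa. For KO against 3F it gave −0.089 to 0.69 for resting H2-Eb1 and, with LPS, −0.029 to 0.14 for H2-DMb2 and −0.65 to 0.21 for Ciita. For the KO response against that of WT it gave −0.70 to 0.30 for H2-Aa, −0.71 to 0.089 for H2-Ab1, −0.51 to 0.28 for H2-Eb1 and −0.082 to 0.21 for H2-DMb1. For the 3F response it gave −0.21 to 0.65 for H2-Aa, −0.50 to 0.24 for H2-Ab1, −0.16 to 0.13 for H2-DMb1, −0.31 to 0.26 for H2-DMb2 and −0.23 to 0.55 for Cd74.

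Calls over all genes moved as well. With LPS, limma-voom gave 5218, 6073 and 5478 in WT, KO and 3F, against 3240, 3059 and 3546. For resting KO against WT 1067 became 396 in the compared groups only, 2259 with limma-voom and 433 with the replicate block. With LPS 544 became 912 with DESeq2, 1031, 1777 and 115. For resting KO against 3F 1464 became 16, 2916 and 1, and with LPS 441 became 778 with DESeq2, 1661, 1842 and 2252. The 1 gene of the KO response against that of WT became 26 with DESeq2 and 57 with limma-voom. Leaving out 1 library gave 392 to 1047 calls for resting KO against WT (lowest without resting WT replicate 2), 180 to 416 with LPS (lowest without KO LPS replicate 2), and for KO against 3F 735 to 1811 resting (lowest without resting 3F replicate 3) and 142 to 311 with LPS (lowest without KO LPS replicate 2). The depth limits Ciita and H2-DMb2 most, at 7 to 65 and 3 to 30 counts.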
